A study of Mus musculus with 8 samples.

Results

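Spink1, Prss28, Prss29, Cxcl15 and Foxa2 are 5 genes of the uterine glands, described here in each of 8 mouse uteri with and without Nr2f2. They are 5 of the 24963 genes of the expression table. They were chosen by symbol, as products of the glands and the gland transcription factor, with their values in the same comparison of Nr2f2 d/d with Nr2f2 f/f uteri already known, so differences between the groups are given for them as a description without a test. Whole uterine tissue was taken on gestation day 3.5 (GD3.5) from 4 control mice, Nr2f2 f/f, whose floxed allele is intact since they have no Cre, and from 4 Nr2f2 d/d mice, which are Pgr Cre/+; Nr2f2 f/f. Cre is knocked into 1 Pgr allele and removes Nr2f2 from cells that express Pgr, so Nr2f2 d/d and Nr2f2 f/f females also differ in that allele. All females were of strain C57B6/J according to the labels and had mated with vasectomized males, so that no embryo was present. The labels give an age of 8 weeks and the methods a wider range.

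Uterine glands are tubes of epithelium that run from the lumen into the stroma and release proteins into the lumen around implantation. Their best known product for implantation is the cytokine LIF. Foxa2 encodes a forkhead transcription factor that in the mouse uterus marks the glandular epithelium and is needed for glands to form and function. Spink1 encodes a Kazal-type inhibitor of trypsin. Prss28 and Prss29 encode the implantation serine proteinases, a pair of tryptase-like enzymes of the endometrial glands known to respond to progesterone. Cxcl15 encodes a chemokine with an ELR motif, first known from lung epithelium, that attracts neutrophils. Nr2f2 encodes the nuclear receptor COUP-TFII, which in the uterus is mainly a protein of the stroma, below progesterone receptor in the signal from epithelium to stroma. Its mRNA level was 6.90 to 9.74 FPKM in the Nr2f2 d/d uteri and 21.8 to 25.7 FPKM in the Nr2f2 f/f uteri.

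The unit is FPKM, which corrects the fragments of a gene for gene length and library size, so levels can be compared between genes. Log2 values are of FPKM + 0.5, so fold changes of genes near 0.5 FPKM are understated. Depth was reckoned from the steps between low FPKM values and was about 61150000 to 92100000 fragments per library. Values listed for a group are those of its replicates 1, 2, 3 and 4 in that order. By that reckoning 3 fragments of Prss28 are worth 0.0267 to 0.0403 FPKM, a limit that covers counting error only. Across the 14323 genes that averaged 0.5 FPKM or more, Nr2f2 f/f replicate 2 was least like its own group, with a mean Pearson r of 0.944 against 0.960 to 0.978 for the other 7 libraries. Differences of the 5 genes, and of the listed genes that passed the test, are therefore also given without it. The tissue was whole uterus, and a change in the number of gland cells cannot be told apart from a change in the RNA of each cell.

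The 5 genes are protein coding and share no exon base with another annotated gene of mm10 (GENCODE vM21). Prss28 occupies chr17:25308646-25311876 and Prss29 chr17:25318654-25322684, both on the plus strand and 6777 bases apart. Cxcl15 lies at chr5:90794534-90803067 on the plus strand and Foxa2 at chr2:148042877-148046969 on the minus strand. The stretches of 250 bases just before the starts of Prss28 and Prss29 are shown because these neighbouring genes had the same order of levels over the 8 uteri. Both are written 5′ to 3′ on the plus strand from RefSeq (GRCm38.p6, the assembly of mm10), Prss28 from chr17:25308396-25308645 and Prss29 from chr17:25318404-25318653. Capitals mark the 2 runs of 15 identical bases in the alignment of the pair.

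Prss28: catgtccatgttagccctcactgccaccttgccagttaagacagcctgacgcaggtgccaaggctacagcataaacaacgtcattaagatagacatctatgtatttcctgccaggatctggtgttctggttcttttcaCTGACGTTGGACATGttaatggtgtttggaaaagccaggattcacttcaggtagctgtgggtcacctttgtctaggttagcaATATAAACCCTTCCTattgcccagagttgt

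Prss29: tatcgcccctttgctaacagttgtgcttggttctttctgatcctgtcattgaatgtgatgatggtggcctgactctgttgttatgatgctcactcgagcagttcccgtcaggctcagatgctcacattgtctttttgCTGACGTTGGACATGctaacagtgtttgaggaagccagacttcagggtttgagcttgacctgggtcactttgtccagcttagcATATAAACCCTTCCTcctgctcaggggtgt

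The aligned stretches were identical at 67.2% of 241 bases. The second run, ATATAAACCCTTCCT, begins at −30 in both genes, counted from the start of transcription, and holds the letters of a TATA box. The first run, CTGACGTTGGACATG, lies at −112 to −98 in Prss28 and at −113 to −99 in Prss29. Short motifs were searched on both strands in the same 250 bases of 32851 promoters. The forkhead motif TGTTTNC, which is in 17.8% of them, was in neither stretch. The hexamer AGGTCA of nuclear receptors is in 14.0% of promoters and was found, as its reverse TGACCT, at −58 to −53 of Prss29. Its other form GGGTCA, which was searched after the stretches had been seen, is in 11.6% of promoters and was found in both genes, at −54 to −49 of Prss28 and at −52 to −47 of Prss29, where it lies next to TGACCT without overlap. The hexamer AGAACA of progesterone receptor is in 16.1% of promoters and was found, as its reverse TGTTCT, at −129 to −124 of Prss28. None of these motifs was in the window of Cxcl15 or in the 3 windows of Foxa2. A match is a description of letters, not of binding. The longest transcripts of Prss28 and Prss29 were identical at 68.4% of 1121 aligned bases. Of the 1141 stretches of 76 bases, the read length, in the annotated transcripts of Prss28, 0 occurred in those of Prss29. Of 1192 stretches of 25 bases, 5 did.

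Spink1, at chr18:43728082-43737557 on the minus strand, was the gene of the 5 whose groups stood apart. Its mRNA abundance was 287.5, 1332, 164.9 and 115.4 FPKM in Nr2f2 f/f and 0.729, 5.15, 2.56 and 24.4 FPKM in Nr2f2 d/d. No Nr2f2 d/d uterus reached the level of a Nr2f2 f/f uterus, and the lowest Nr2f2 f/f value was 4.73 times the highest Nr2f2 d/d value. Nr2f2 f/f averaged 474.9 ± 575.8 and Nr2f2 d/d 8.21 ± 10.9 FPKM (SD, n = 4 each), and the median of Nr2f2 f/f was 58.7 times that of Nr2f2 d/d. The log2 difference, Nr2f2 d/d minus Nr2f2 f/f, was −5.93 with a pooled SD of 1.69, and −5.20 without Nr2f2 f/f replicate 2. Among the 24963 genes of a library, Spink1 ranked 18th to 384th by FPKM in the Nr2f2 f/f uteri and 2597th to 13706th in the Nr2f2 d/d uteri. Of the 5 genes, 1 had groups that did not overlap with Nr2f2 d/d lower and 0 with Nr2f2 d/d higher, where 9.91% and 5.49% of all 14323 genes did. These counts describe genes chosen on this comparison.

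**Figure D1:**
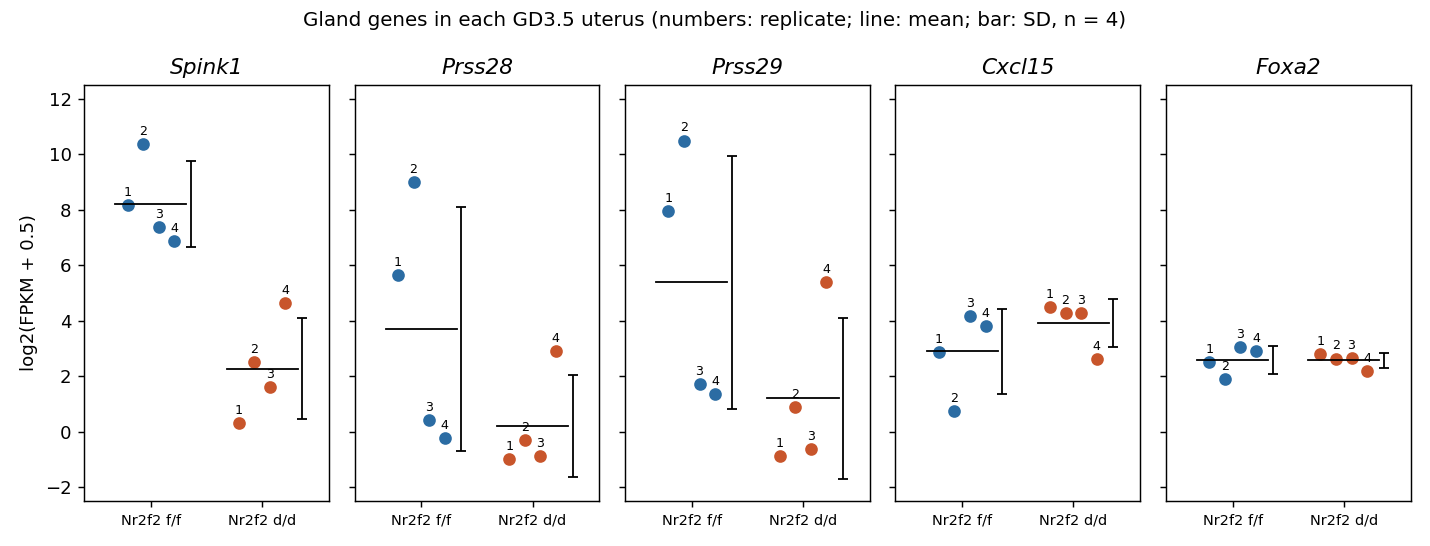
mRNA levels of the 5 genes in each uterus as log2(FPKM + 0.5) on the vertical axis, with Nr2f2 f/f in blue and Nr2f2 d/d in orange, replicate numbers beside the points, the mean of each group as a line and its SD as a bar (n = 4 each). Spink1 is the gene whose groups do not overlap, Prss28 and Prss29 spread from −0.25 to 8.99 and from 1.35 to 10.5 on this axis within Nr2f2 f/f, and Foxa2 stays between 3.24 and 7.74 FPKM.

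The proteases did not follow the genotype in the same way. Prss29 had 244.3, 1444, 2.80 and 2.05 FPKM in Nr2f2 f/f and 0.041, 1.35, 0.146 and 41.6 FPKM in Nr2f2 d/d. The Nr2f2 f/f uteri fell into 2 with abundant and 2 with scarce mRNA, and Nr2f2 d/d replicate 4 lay between them, above Nr2f2 f/f replicates 3 and 4. In Nr2f2 f/f replicate 2, Prss29 was the 13th most abundant mRNA of the library, and in replicate 4 it ranked 11699th. The lowest value, in Nr2f2 d/d replicate 1, was worth about 3 fragments.

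Prss28 had 50.0, 509.7, 0.830 and 0.342 FPKM in Nr2f2 f/f. In Nr2f2 d/d it had 0, 0.318, 0.0450 and 6.99 FPKM. The value of 0 allows up to 0.0396 FPKM at that depth, and 0.0450 FPKM was worth about 5 fragments. The order of the 8 uteri was the same as for Prss29, and again 3 of 4 Nr2f2 d/d uteri lay below all Nr2f2 f/f uteri while Nr2f2 d/d replicate 4 did not. All 5 genes passed the filter of a mean of 0.5 FPKM over the 8 libraries, Prss28 with 4 uteri below 0.5 FPKM.

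For both proteases the difference between groups was about as large as the spread within them. The log2 difference was −3.52 for Prss28 (pooled SD 3.38) and −4.18 for Prss29 (pooled SD 3.82). Without Nr2f2 f/f replicate 2 these became −1.76 and −2.48. The medians of Prss29 were 123.6 FPKM in Nr2f2 f/f and 0.75 FPKM in Nr2f2 d/d, and the means were 423.3 ± 690.0 and 10.8 ± 20.5 FPKM (SD, n = 4 each). The means of Prss28 were 140.2 ± 247.4 and 1.84 ± 3.43 FPKM (SD, n = 4 each).

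While the levels moved over several orders of magnitude, the ratio of the proteases moved between 2.83 and 6.0. Prss29 was 4.89, 2.83, 3.38 and 6.0 times Prss28 in Nr2f2 f/f and 4.25, 3.24 and 5.95 times in Nr2f2 d/d replicates 2 to 4. Spink1 did not keep such a ratio to Prss29. It was 1.18 and 0.922 times Prss29 in Nr2f2 f/f replicates 1 and 2, 58.8 and 56.3 times in replicates 3 and 4, and 17.8, 3.80, 17.5 and 0.587 times in Nr2f2 d/d. In the Nr2f2 f/f uteri with scarce protease mRNA, Spink1 was thus still above 100 FPKM. The 3 genes together made up 0.993% of all FPKM in Nr2f2 f/f replicate 2 and 0.0340% to 0.174% in the other Nr2f2 f/f uteri.

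Cxcl15 went the other way. It had 6.83, 1.18, 17.6 and 13.4 FPKM in Nr2f2 f/f and 22.2, 18.9, 18.8 and 5.62 FPKM in Nr2f2 d/d. In 3 of 4 Nr2f2 d/d uteri it lay above every Nr2f2 f/f uterus, and Nr2f2 d/d replicate 4 lay below 3 of the Nr2f2 f/f uteri. Nr2f2 f/f averaged 9.74 ± 7.23 and Nr2f2 d/d 16.4 ± 7.36 FPKM (SD, n = 4 each). The log2 difference of 1.02 was smaller than the pooled SD of 1.25, and it was 0.30 without Nr2f2 f/f replicate 2.

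Foxa2, the gland transcription factor, differed little between the groups. It had 5.15, 3.24, 7.74 and 6.96 FPKM in Nr2f2 f/f and 6.39, 5.71, 5.82 and 4.02 FPKM in Nr2f2 d/d. All Nr2f2 d/d values lay within the range of Nr2f2 f/f. Nr2f2 f/f averaged 5.77 ± 2.01 and Nr2f2 d/d 5.48 ± 1.02 FPKM (SD, n = 4 each), a log2 difference of −0.02 with a pooled SD of 0.41, and of −0.25 without Nr2f2 f/f replicate 2. Its sign turned with the scaling, to 0.0004 with median-ratio scaling and 0.0157 with quantile normalization. Set against Foxa2 in each uterus, the log2 difference was −5.91 for Spink1, −3.50 for Prss28, −4.16 for Prss29 and 1.04 for Cxcl15. Since Foxa2 itself differed by −0.02, these values repeat the differences of each gene and are no test of gland content.

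The range from the highest to the lowest uterus of a group set the proteases apart from the remaining genes. Among the Nr2f2 f/f uteri, Prss28 covered a 1490-fold range and Prss29 a 704-fold range, against 15.0-fold for Cxcl15, 11.5-fold for Spink1 and 2.39-fold for Foxa2. By the SD of log2 values in Nr2f2 f/f, Prss29 (4.56) and Prss28 (4.41) ranked first and second of 14323 genes, whose median SD was 0.174. The other 5 genes with an SD over 3 were Prap1, Sprr2f, Atp6v0d2, Depp1 and Sprr2b. Spink1 (1.55) and Cxcl15 (1.54) ranked 89th and 91st, and Foxa2 (0.51) ranked 1294th. In Nr2f2 d/d the SD of Prss29 was 2.91, second to Clca1, where the median of all genes was 0.156. Prss28 (1.84) and Spink1 (1.82) ranked 27th and 30th there, Cxcl15 (0.88) 296th and Foxa2 (0.27) 3674th.

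**Figure D2:**
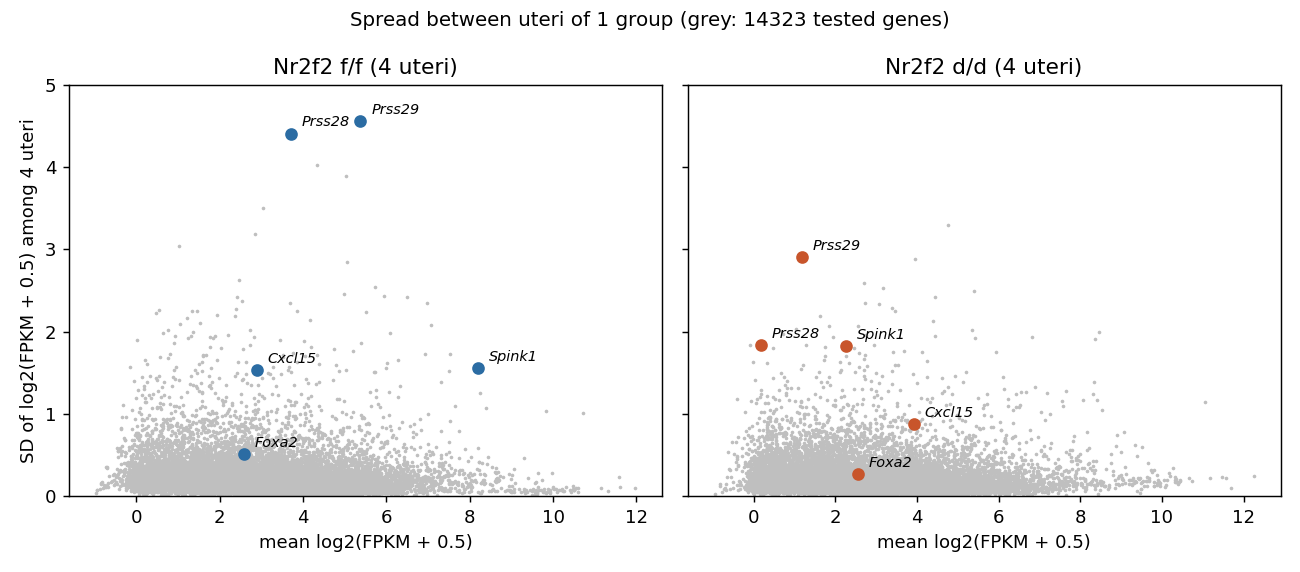
SD of log2(FPKM + 0.5) among the 4 uteri of a group on the vertical axis against the mean of the same group on the horizontal axis, for the 14323 genes tested in grey and the 5 gland genes in colour, with Nr2f2 f/f on the left and Nr2f2 d/d on the right. Prss29 and Prss28 have the highest SD of all in Nr2f2 f/f, 4.56 and 4.41, and Foxa2 lies within the grey cloud in both groups.

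Within each group the 5 genes moved in 2 opposite sets. Spink1, Prss28 and Prss29 had the same order of uteri within Nr2f2 f/f, from replicate 2 down through 1 and 3 to 4, and the same order within Nr2f2 d/d, from replicate 4 down through 2 and 3 to 1. Cxcl15 and Foxa2 were lowest in Nr2f2 f/f replicate 2 and in Nr2f2 d/d replicate 4, the uteri with the highest Spink1, Prss28 and Prss29 of their groups. As deviations from the group means on the log2 scale, over 8 libraries, the Pearson r was 0.981 between Prss28 and Prss29, 0.841 between Spink1 and Prss28 and 0.893 between Spink1 and Prss29. It was 0.993 between Cxcl15 and Foxa2. Between the sets it was −0.894 to −0.947 for Cxcl15 with the 3 other secreted products and −0.891 to −0.967 for Foxa2 with them. These values are descriptions over genes that share libraries and depth, and r without single uteri was not computed. By the same measure many genes reach such values. From 65 genes for Spink1 to 325 for Prss28 had r over 0.9, and from 130 for Spink1 to 267 for Prss28 had r under −0.9.

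**Figure D3:**
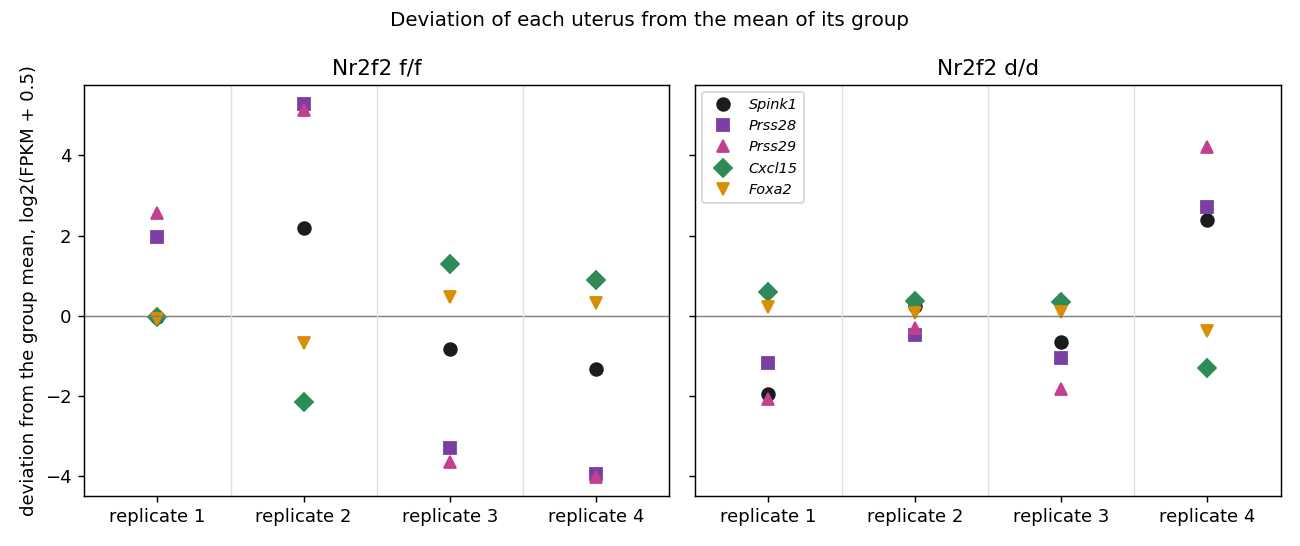
Deviation of each uterus from the mean of its group, in log2(FPKM + 0.5), for the 5 gland genes, with replicates 1 to 4 of Nr2f2 f/f on the left and of Nr2f2 d/d on the right. In Nr2f2 f/f replicate 2 and Nr2f2 d/d replicate 4, Spink1, Prss28 and Prss29 lie above the line and Cxcl15 and Foxa2 below it.

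The ratio of Cxcl15 to Foxa2 was 3.23 to 3.48 in Nr2f2 d/d replicates 1 to 3 and 1.4 in replicate 4. In Nr2f2 f/f it was 1.33, 0.363, 2.27 and 1.92, all below those 3 Nr2f2 d/d uteri. By level, Cxcl15 and Foxa2 correlated with r = 0.885 over the 8 libraries, while Foxa2 and Spink1 had r = −0.367.

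Genes with the most similar profile over the 8 libraries are named by Pearson r among the 14323 genes, with no claim of shared function. The closest to Spink1 by level were Prrt2 (0.987), Snrnp70 (0.979) and Mcm3ap (0.977), and to Foxa2 Vopp1 (0.978), Stk16 (0.967) and Hccs (0.962). Amdhd1 and P2rx2 were closest to both proteases, with 0.992 and 0.988 for Prss28 and 0.989 each for Prss29, followed by Crybb3 (0.986) for Prss28 and Neat1 (0.987) for Prss29. For Cxcl15 these were Vma21 (0.991), Rtn4ip1 (0.984) and B230307C23Rik (0.978). With 8 libraries many genes reach such values. By level, 56 genes for Foxa2 to 285 for Prss28 had r over 0.9, and by deviation 284 for Foxa2 and 325 for Prss28. By deviation from the group means, the closest were Trim68, Aqp1 and Clcn6 for Spink1 (0.982, 0.972 and 0.965), Pkd1, Chp2 and Fxyd3 for Prss28 (0.996, 0.990 and 0.990) and Prss12, Plekha4 and Guca2b for Prss29 (0.996, 0.992 and 0.988). Stk16 (0.998), Foxa2 (0.993) and Cib1 (0.992) were closest to Cxcl15, and Cib1 (0.997), Cxcl15 (0.993) and Wdr7 (0.991) to Foxa2. Guca2b encodes uroguanylin, a secreted peptide. Its levels of 28.7, 84.0, 3.76 and 2.14 FPKM in Nr2f2 f/f and 2.83, 2.99, 2.57 and 26.0 FPKM in Nr2f2 d/d were high in the same 3 uteri as Prss29.

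Lgr5, Lif and Prap1 are given beside these although they were chosen after their values were seen. Lgr5, a receptor for R-spondins that marks epithelial progenitors, had 16.5, 5.44, 0.376 and 0.990 FPKM in Nr2f2 f/f and 0.261, 0.354, 0.35 and 3.40 FPKM in Nr2f2 d/d. As for the proteases, Nr2f2 f/f replicates 1 and 2 and Nr2f2 d/d replicate 4 were its 3 highest uteri. Lif, the gland cytokine, had 12.2, 0.647, 9.48 and 9.86 FPKM in Nr2f2 f/f and 4.24, 4.21, 6.83 and 7.30 FPKM in Nr2f2 d/d. The groups overlapped, and limma gave an adjusted p of 0.972. Its lowest uterus was Nr2f2 f/f replicate 2, the uterus with the highest Spink1 and proteases. Prap1, a secreted proline-rich acidic protein of the epithelium, was at 1219 FPKM in that uterus and at 1.80 to 34.5 FPKM in the other 7.

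Other genes of the glands were compared with limma's moderated test over all 14323 genes, with Benjamini-Hochberg adjusted p-values. Of all genes, 1.09% were higher and 1.53% lower in Nr2f2 d/d at an adjusted p under 0.05. These shares move with the libraries and the scaling: 42 to 348 genes passed with 1 library left out, against 375 with all 8, and 191 of 376 were higher with median-ratio scaling, against 156 of 375. At the threshold of the methods, which asks for a fold change of 1.4 or more and for p under 0.05 with no adjustment, 4.7% were higher and 4.1% lower. An unadjusted p under 0.05 alone was reached by 21.2% of all genes, and counts of listed genes at that level are to be read against this share. The lists of gland-forming regulators, other gland and secretory genes and the LIF pathway hold 49 genes together, of which 46 were tested. At the adjusted threshold 2 of the 46 rose in Nr2f2 d/d and 0 fell. At the other threshold 6 were higher and 2 lower. Their median log2 difference was 0.13, against −0.02 for all genes tested.

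Among the gland-forming regulators, 1 of 22 tested rose. Rspo1, a secreted activator of WNT signals through Lgr receptors, had 7.51 ± 0.564 FPKM in Nr2f2 f/f and 12.2 ± 1.39 FPKM in Nr2f2 d/d (SD, n = 4 each). On the log2 scale it rose by 0.67 with a standard error of 0.0958 (limma, adjusted p = 0.0189). Lef1, a transcription factor of the WNT pathway, and Wnt5a, a WNT ligand, had log2 fold changes of −1.02 and 0.75 and did not pass the adjustment (adjusted p = 0.0732 and 0.0744 from limma). Foxa1 and Foxa3, the relatives of Foxa2, reached at most 0.007 and 0.062 FPKM in any library, so that Foxa2 was the one FOXA gene with an appreciable level.

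Among the other gland and secretory genes, 1 of 15 tested rose. Spp1, which encodes the secreted adhesion protein osteopontin, had 34.4 ± 18.3 FPKM in Nr2f2 f/f and 149.7 ± 49.1 FPKM in Nr2f2 d/d (SD, n = 4 each). On the log2 scale it rose by 2.21 with a standard error of 0.413 (limma, adjusted p = 0.0371). Other annotated genes share 18.8% of its exon bases. The log2 differences of the 15 genes ran from −1.22 to 3.38, with a median of 0.98. Slpi, an inhibitor of serine proteases, and Muc1, a mucin of the epithelial surface, had log2 fold changes of 1.07 and 1.15 (adjusted p = 0.0742 and 0.106 from limma). With each library left out in turn, Rspo1 passed the adjusted threshold in 4 of 8 fits and Spp1 in 2 of 8. Without Nr2f2 f/f replicate 2 they rose by 0.69 and 2.43 on the log2 scale (limma, adjusted p = 0.0284 and 0.0382). None of the 10 genes of the LIF pathway passed, although 3 had an unadjusted p under 0.05. Egr1, a transcription factor downstream of LIF, had the smallest p, and its log2 fold change was −0.75 (limma, adjusted p = 0.101). Jak1 and Il6st, the kinase and the shared receptor chain of LIF signals, were at −0.36 and −0.26 (limma, adjusted p = 0.178 and 0.213).

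The relatives of the secreted products were mostly scarce. Of 11 other Kazal inhibitor genes, 2 could be tested, 0 of them with an unadjusted p under 0.05, and 3 were at 0 in every library. Spink8 and Spink12 had log2 fold changes of 0.65 and 1.41 (adjusted p = 0.736 and 0.334 from limma). Spink12 passed the filter through Nr2f2 d/d, with 0, 0, 0.058 and 0.036 FPKM in Nr2f2 f/f and 1.02, 0.126, 7.31 and 0 FPKM in Nr2f2 d/d, so that its difference rests mainly on Nr2f2 d/d replicate 3. Spink8 reached 15.2 FPKM in Nr2f2 f/f replicate 3 and was lowest, at 0.359 FPKM, in Nr2f2 f/f replicate 2, where Spink1 was highest. Of 10 tryptase-like protease genes, 4 could be tested and 0 passed, and 0 had an unadjusted p under 0.05. Prss22 was the most abundant of Prss22, Prss27 and Prss33, with 2.48 to 11.2 FPKM in Nr2f2 d/d. In Nr2f2 f/f it had 13.0, 1.59, 1.58 and 1.63 FPKM, so that replicate 2, where Prss29 was at 1444, was like replicates 3 and 4. The log2 fold changes of Prss22, Prss27 and Prss33 were 0.68, 0.58 and 0.21 (limma, adjusted p = 0.609, 0.369 and 0.857). Prss27 and Prss33 passed the filter through Nr2f2 d/d, with means of 0.322 and 0.358 FPKM in Nr2f2 f/f and 0.733 and 0.764 FPKM in Nr2f2 d/d. For Prss33 the latter rests mainly on Nr2f2 d/d replicate 4, at 2.60 FPKM. Of 8 other genes for ELR chemokines, a related platelet chemokine and their receptors, 2 could be tested, 0 of them with an unadjusted p under 0.05. Cxcl5 and Pf4 had log2 fold changes of −0.28 and −0.09 (adjusted p = 0.654 and 0.813 from limma).

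**Figure D4:**
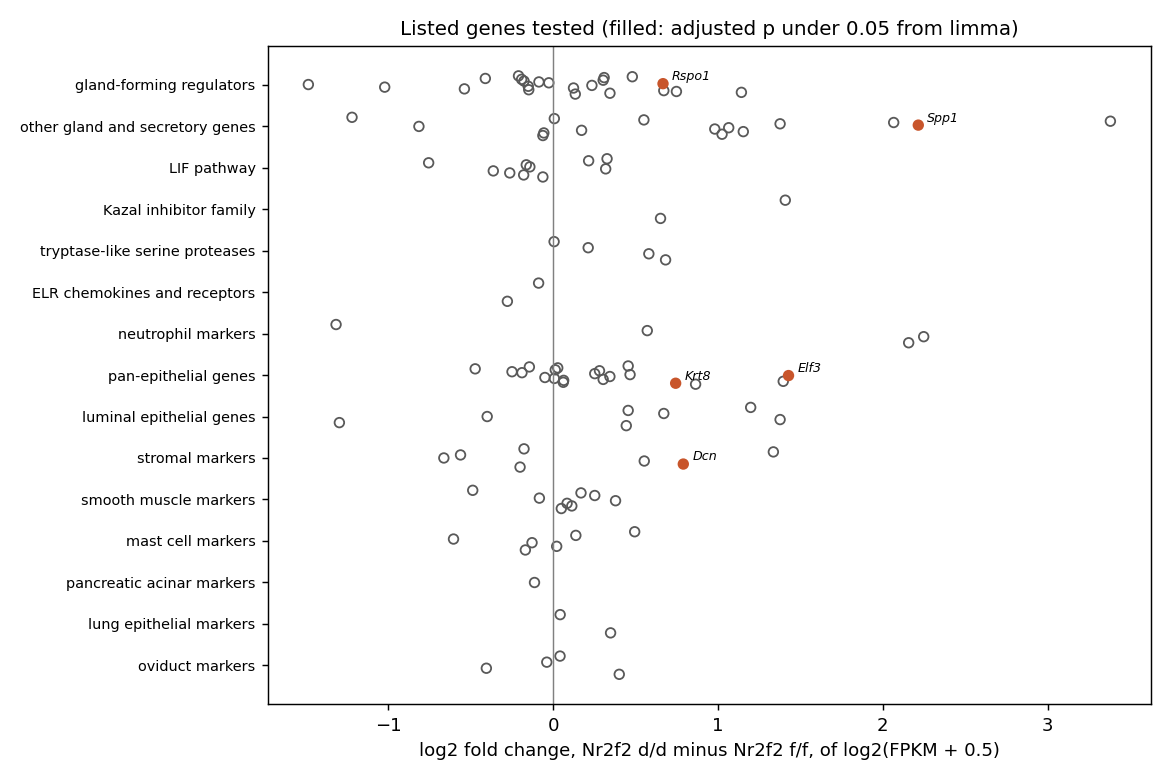
Log2 fold change, Nr2f2 d/d minus Nr2f2 f/f, of every tested gene of the gland, family and cell type lists, 1 row per list and 1 circle per gene, with filled circles for an adjusted p under 0.05 from limma. Rspo1, Spp1, Krt8, Elf3 and Dcn are filled, all to the right of 0, and the 5 gland genes themselves are not plotted.

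Markers of other cells were read beside the 5 genes. The summed level of the pan-epithelial genes was 1089 to 1400 FPKM in Nr2f2 f/f and 1449 to 1565 FPKM in Nr2f2 d/d. Of these genes, 2 of 20 rose and 0 fell, and the log2 differences ran from −0.47 to 1.43 with a median of 0.16. Krt8, a keratin of simple epithelia, rose from 114.5 ± 6.31 to 192.3 ± 16.2 FPKM (SD, n = 4 each), or by 0.74 on the log2 scale with a standard error of 0.0844 (limma, adjusted p = 0.00829). Elf3, an epithelial transcription factor, rose by 1.43 on the log2 scale (adjusted p = 0.0415 from limma), and it passed in 2 of the 8 fits that left out 1 library, against 8 of 8 for Krt8. Without Nr2f2 f/f replicate 2, Krt8 rose by 0.73 and Elf3 by 1.21 (limma, adjusted p = 0.0192 and 0.0482). Set against the mean of the pan-epithelial genes in each uterus, the log2 difference was −6.21 for Spink1, −3.80 for Prss28, −4.47 for Prss29, 0.74 for Cxcl15 and −0.30 for Foxa2. Each is the difference of the gene less that of the list mean. Whether this list follows the number of gland cells was not tested. None of 7 luminal epithelial genes or 8 smooth muscle markers passed, and 0 of either list had an unadjusted p under 0.05 from limma. The luminal genes with the smallest p were Wnt7a, Muc4 and Calb1, at log2 fold changes of 0.67, 1.20 and 1.38, and the muscle genes Synm, Cnn1 and Smtn, at −0.49, 0.38 and 0.17. The 7 stromal markers went in both directions, with a median log2 difference of −0.18, and 5 of them had an unadjusted p under 0.05. Dcn, a matrix proteoglycan, rose by 0.79 on the log2 scale (adjusted p = 0.0192 from limma) and passed in 4 of the 8 fits that left out 1 library, with 0.89 without Nr2f2 f/f replicate 2 (limma, adjusted p = 0.0109). Col6a3, a collagen, and Lum, a matrix proteoglycan, had log2 fold changes of 1.34 and 0.55 and did not pass (limma, adjusted p = 0.129 and 0.173), although neither overlapped between the groups. Vim, an intermediate filament, and Thy1, a surface glycoprotein, had −0.66 and −0.56 and did not pass either (limma, adjusted p = 0.113 and 0.161). The summed level of the stromal markers was 1032 to 1302 FPKM in Nr2f2 f/f and 1232 to 1483 FPKM in Nr2f2 d/d. Dcn alone went from 356.6 to 499.0 FPKM in Nr2f2 f/f to 673.3 to 719.5 FPKM in Nr2f2 d/d, and Vim from 275.7 to 496.5 FPKM to 203.5 to 301.2 FPKM. The smooth muscle markers summed to 1296 to 1822 FPKM in Nr2f2 f/f and 1038 to 2553 FPKM in Nr2f2 d/d.

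Neutrophil markers had a summed level of 3.77 to 21.3 FPKM in Nr2f2 f/f and 18.5 to 41.4 FPKM in Nr2f2 d/d over 10 genes. Of these, 4 were tested, 0 passed the adjustment in limma and 3 had an unadjusted p under 0.05. Ly6g reached 0.362 FPKM in Nr2f2 f/f and 1.45 FPKM in Nr2f2 d/d, and Mpo, Elane, Camp, Ngp and Mmp8 were at most 0.191 FPKM in any library. S100a8 and S100a9, calcium-binding proteins of neutrophils and other cells, had log2 fold changes of 2.16 and 2.25 that did not pass (adjusted p = 0.0689 and 0.0912 from limma), although neither overlapped between the groups. Together they made up 42.4% to 64.3% of the summed level in Nr2f2 f/f and 84.2% to 88.7% in Nr2f2 d/d, and the other 8 genes summed to 2.1 to 8.49 FPKM and 2.7 to 5.8 FPKM. Retnlg, a resistin-like protein of neutrophils, went the other way, with 0.729 to 4.73 FPKM in Nr2f2 f/f and 0.266 to 0.772 FPKM in Nr2f2 d/d, a log2 fold change of −1.32 that did not pass either (limma, adjusted p = 0.131). Their part in the level of Cxcl15 was not tested. Cxcr2, the receptor of ELR chemokines, was at 0.0470 to 0.341 FPKM in Nr2f2 f/f and 0.368 to 1.06 FPKM in Nr2f2 d/d.

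Markers of other tissues and cells known to express these genes or their relatives were read in the same way, and their part in the levels of the 5 genes was not tested. For Spink1, which the exocrine pancreas makes in quantity, 4 of 15 pancreatic acinar markers were at 0 in every library, Prss1 among them, and the summed level was 3.16 to 4.65 FPKM in Nr2f2 f/f and 2.68 to 4.51 FPKM in Nr2f2 d/d, most of it Cela1, the 1 marker tested (limma, adjusted p = 0.770). The seminal vesicle, another source of Spink1, was checked because the females had mated. Of its 8 markers 5 were at 0 in every library, and the sum was 0.063 to 0.141 FPKM in Nr2f2 f/f and 0.085 to 0.131 FPKM in Nr2f2 d/d. For Cxcl15, the lung markers Sftpa1, Sftpb, Sftpc, Scgb1a1, Scgb3a2 and Nkx2-1 were at most 0.138 FPKM in any library. Sftpd, a collectin that other epithelia also express, was at 1.32 to 72.0 FPKM and was highest in Nr2f2 f/f replicate 2. Sftpd and Ager were the 2 lung markers tested, and neither had an unadjusted p under 0.05. Of 6 oviduct markers 4 were tested, 0 passed in limma and 1 had an unadjusted p under 0.05, the cilium gene Tekt1 at a log2 fold change of −0.40 (adjusted p = 0.144). Foxj1, the regulator of motile cilia, averaged too little to be tested and was at 0.12 to 0.184 FPKM in Nr2f2 f/f and 0.261 to 2.21 FPKM in Nr2f2 d/d, without overlap. Ovgp1, the oviduct glycoprotein, was at 8.23 to 27.4 FPKM in Nr2f2 f/f and 2.41 to 53.7 FPKM in Nr2f2 d/d. Its order did not follow that of the proteases, with 8.23 FPKM in Nr2f2 f/f replicate 2 and 53.7 FPKM in Nr2f2 d/d replicate 4. Of 8 mast cell markers, 6 were tested, 0 passed in limma and 1 had an unadjusted p under 0.05. That was Kit, the receptor for stem cell factor, at 12.41 to 19.96 FPKM in Nr2f2 f/f and 9.14 to 9.71 FPKM in Nr2f2 d/d (limma, adjusted p = 0.0629). The summed level of the list was 110.2 to 377.2 FPKM in Nr2f2 f/f and 106.9 to 461.8 FPKM in Nr2f2 d/d. Most of it came from Hdc, which makes histamine, at 53.8 to 383.8 FPKM, and from the transcription factor Gata2, at 22.4 to 87.3 FPKM, both of which the endometrium also expresses. The mast cell genes Cpa3, Cma1 and Mcpt4 were at most 1.51 FPKM in any library, and the mast cell tryptase gene Tpsb2, a relative of Prss28 and Prss29, was at 0.538 to 1.18 FPKM.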

How the data were processed

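Uterine RNA was extracted with TRIzol, made into libraries with a TruSeq kit and sequenced as 76-base paired-end reads. The authors trimmed adaptors with cutadapt 1.12, aligned to mm10 with STAR 2.5.2b, counted fragments with featureCounts 1.5.0-p1 and deposited FPKM. The submitters' processing notes also list Cufflinks 2.0.2. The annotation, the strand setting and the FPKM formula are not given in the sources used here, and the counts that the authors tested with DESeq2 were not used. FPKM are relative to the library total, so very abundant transcripts shift all others.

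Groups and replicate numbers 1 to 4 come from the sample titles, and 0 columns were left unmatched. The numbers in the sample descriptions differ from those of the titles. The labels do not state that equal numbers pair mice, and nothing says whether libraries differ in a batch. The p-values measure the spread between these samples, 1 library each.

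Depth was found from 2105 single-exon genes: at 1 total per library, 76.3% to 81.6% of their low FPKM values were whole fragments within 0.1, against medians of 13.6% to 15.1% at other totals. Log2 was taken of FPKM + 0.5. All genes averaging 0.5 FPKM or more were tested with limma 3.58.1 in R 4.3.3 (trended eBayes, two-sided, Benjamini-Hochberg adjustment), after a test on simulated data. Tables were made with Python 3.11.15. The fit has no covariate.

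The 5 genes and the 16 gene lists were chosen with earlier results of these data known. The lists come from general knowledge. Named genes are the 5 members, the called genes of each list or its 3 smallest p-values, and the 3 genes most like each member. Lif, Lgr5, Prap1, Foxa1, Foxa3, Cxcr2, Lum, Thy1, Foxj1, Hdc and the markers given to show that a tissue is near 0 are named outside that rule. Muc16 was not matched in the table. Alternatives were other added values, filters, scalings and thresholds, robust estimation, the replicate block and each library left out. Spink1 had no window in the promoter table.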

Additional observations from a re-analysis of the deposited data

Results flagged for a closer look

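In a group of 4, 1 uterus lay far from the other 3 for several genes, judged by its gap to the nearest of them against the range of the group. The comparison was made on the FPKM, not on the log2 values, and it picks about 1 in 20 groups by chance. Nr2f2 f/f replicate 2 stood apart for Spink1 (1332 FPKM), Prss28 (509.7 FPKM) and Prss29 (1444 FPKM), for Prap1 (1219 FPKM), and also for Wnt5a (20.64 FPKM, the lowest of its group) and Cela1 (2.393 FPKM, the lowest). Nr2f2 d/d replicate 4 stood apart for Prss28 (6.985 FPKM) and Prss29 (41.59 FPKM) and for Prss33 (2.595 FPKM), a tryptase-like protease, Guca2b (25.98 FPKM) and Lgr5 (3.405 FPKM). For Prss28 and Prss29, Nr2f2 f/f replicate 1 was also far above replicates 3 and 4, so that on the log2 scale the Nr2f2 f/f uteri lay 2 and 2.

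Among the other named genes, the uterus apart was the lowest of its group for Rspo1 in Nr2f2 f/f replicate 3 (6.666 FPKM), for Dcn in Nr2f2 d/d replicate 2 (673.3 FPKM) and for Nr2f2 in Nr2f2 d/d replicate 3 (6.898 FPKM). It was the highest for Muc1 in Nr2f2 f/f replicate 3 (24.34 FPKM), for Egr1 in Nr2f2 d/d replicate 2 (13.02 FPKM), for Spink12 and Foxj1 in Nr2f2 d/d replicate 3 (7.313 and 2.214 FPKM) and for Prss22 in Nr2f2 f/f replicate 1 (12.98 FPKM).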

How the results depend on the processing

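With 4 uteri in each group, and with protease levels that lay 2 and 2 in Nr2f2 f/f and 1 against 3 in Nr2f2 d/d, the group means of the proteases depend on few libraries. Under the alternatives run, Spink1, Prss28 and Prss29 were lower and Cxcl15 higher in Nr2f2 d/d by mean log2 value in every case. Over the 8 fits without 1 library, the log2 difference was −6.73 to −5.20 for Spink1, −4.84 to −1.76 for Prss28, −5.59 to −2.48 for Prss29, 0.30 to 1.45 for Cxcl15 and −0.25 to 0.13 for Foxa2. The value nearest to 0 came without Nr2f2 f/f replicate 2 for the first 4 of these. Foxa2 turned positive without Nr2f2 f/f replicate 3 (0.1304) or 4 (0.0822), without Nr2f2 d/d replicate 4 (0.1072), with median-ratio scaling (0.0004) and with quantile normalization (0.0157). The cause was not tested. With 0.1 or 1 added before the log, Prss28 was −4.47 or −3.13 and Prss29 −5.00 or −3.77, since their low values lie near the number added.

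Of all genes, 375 passed the adjusted threshold, 156 of them higher in Nr2f2 d/d. With median-ratio scaling 191 of 376 were higher, and with quantile normalization 170 of 379. At the threshold of the methods 1260 genes passed. The count was 42 to 348 over the fits without 1 library. Leaving out Nr2f2 f/f replicate 1 gave 62, replicate 3 gave 208 and replicate 4 gave 95, and leaving out Nr2f2 d/d replicate 1 gave 57 and replicate 2 gave 42. Of the gland-related listed genes, 2 passed, Rspo1 and Spp1. The number was 1 without the filter on low values, 8 at the threshold of the methods and 0 to 3 with each library left out, 0 of them without Nr2f2 f/f replicate 1 or 4 or Nr2f2 d/d replicate 1 or 2, and 1 without Nr2f2 d/d replicate 3. Rspo1, Spp1 and Wnt5a were the 3 that passed when Nr2f2 f/f replicate 2 was left out, and Rspo1, Muc1 and Hbegf when Nr2f2 d/d replicate 4 was. With the replicate number of the titles as a block, 1 gene of all and 0 of the gland-related genes passed in limma, with 2472 and 15 at an unadjusted p under 0.05. Uteri with the same title number did not deviate together, with r of −0.204, −0.172, 0.0452 and −0.0403 for numbers 1 to 4. The groups also share the numbers 1, 3 and 5 of the sample descriptions, for which r was −0.204, 0.149 and −0.0403, not above 0.1 in every pair. With those numbers as a block, an alternative chosen after seeing the data, 0 genes of all and 0 of the gland-related genes passed in limma, with 3186 and 16 at an unadjusted p under 0.05. Neither numbering showed a pairing by this measure, which with so few pairs cannot exclude a pairing or a batch.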
